A study of Homo sapiens with 12 samples.

Results

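The genes described here are 42 genes of mitosis and the spindle, out of the 36866 genes of the deposited expression table. They were chosen by name from their known roles, with earlier results of these data known. They were sorted into 8 groups by role: cyclin-CDK regulators of mitotic entry (8 genes), mitotic kinases and the chromosomal passenger complex (4), the spindle checkpoint (5), anaphase ubiquitination and securin (3), kinetochore and centromere (6), kinesins and spindle proteins (11), chromosome structure (3) and cytokinesis (2). All 42 were expressed and all 42 could be tested in every comparison. Poly(A) mRNA was sequenced from THP-1 and U-937 cells, human myeloid leukemia lines that grow in suspension, each labelled with a complex karyotype. Cells of each line received honokiol, a biphenolic compound of magnolia bark, or the vehicle, 0.1% DMSO, for 24 h. There were 3 libraries for each of the 4 groups, 12 in all. The labels list honokiol at 20 and 35 µM and do not tie either dose to a line, so the dose behind each library is not known here, and a difference between the lines in the effect of honokiol cannot be told apart from a difference in dose. The labels do not say whether the 3 libraries of a group came from separate cultures. The study states in general that its experiments were repeated, without naming the sequencing, so the p-values measure the spread between libraries, which may be technical.

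Cells enter mitosis when CDK1, joined to cyclin B, becomes active, after the CDC25 phosphatases remove the phosphates that hold it back. Aurora and Polo-like kinases then build the spindle, motor proteins move its microtubules, kinetochores attach the chromosomes to it, and the spindle checkpoint holds back the anaphase-promoting complex until every chromosome is attached. CDC20 and UBE2C then let that complex destroy cyclin B and securin, and the cell divides. Most of these genes are transcribed in G2 and M phase and kept low in G0 and G1, so their mRNA in a bulk sample follows the share of cells in those phases as well as the mRNA per cell. Bulk libraries cannot separate fewer cells in G2 and M from less RNA in each. The study asked by flow cytometry how honokiol moved these lines through the cell cycle, and the 42 genes give the mRNA side of that question.

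The promoters of these genes often share a pair of short sequences, the CHR (cell cycle genes homology region, searched here as TTTGAA or TTCGAA on either strand), where the complexes that time G2 and M transcription sit, and the CCAAT box, the site of NF-Y. RefSeq promoter windows on GRCh38.p14, from 250 bases before the start to 50 after it, were found for 35 of the 42 genes. They were not found for AURKA, BIRC5, BUB3, FOXM1, TPX2, TTK and UBE2C. The CHR letters stood in a window of 26 of the 35 genes (74.3%), against 19.5% of the 27305 genes with a window. From 100 bases before to 50 after the start they stood in 25 of the 35 (71.4%), against 9.09% of all genes. CCAAT on either strand stood in 27 (77.1%), against 39.7%, and both stood in a single window of 21 (60%), against 7.85%. A gene could have several windows, and a match of letters is a description of the sequence, not a bound site.

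The 100 bases just before the start of 5 members are shown because they hold the pattern in its different forms. Each is written 5′ to 3′ on the gene's own strand, with CHR letters (TTTGAA, or TTCAAA on the other strand) and CCAAT (or ATTGG) in capitals, and all 5 genes lie on the plus strand.
CDC20, chr1:43358881-43358980: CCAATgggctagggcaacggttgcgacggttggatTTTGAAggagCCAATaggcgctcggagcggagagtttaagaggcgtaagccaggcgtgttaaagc
KIF4A, chrX:70290004-70290103: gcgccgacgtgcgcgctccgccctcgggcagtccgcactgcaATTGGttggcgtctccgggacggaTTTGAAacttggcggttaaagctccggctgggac
CKS2, chr9:89311095-89311194: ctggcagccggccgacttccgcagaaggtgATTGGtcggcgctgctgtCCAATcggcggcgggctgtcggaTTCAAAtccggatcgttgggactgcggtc
KIF11, chr10:92593030-92593129: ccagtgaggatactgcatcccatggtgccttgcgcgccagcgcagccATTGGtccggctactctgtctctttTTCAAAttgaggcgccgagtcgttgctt
CENPF, chr1:214603095-214603194: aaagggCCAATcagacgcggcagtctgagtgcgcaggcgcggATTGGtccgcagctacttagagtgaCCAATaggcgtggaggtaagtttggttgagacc
The CHR letters begin at -65 from the start in CDC20, at -34 in KIF4A, at -29 in CKS2 and at -28 in KIF11. The printed stretch of CENPF holds CCAAT boxes without CHR letters, which in its window begin at +41, after the start.

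Levels are given as FPKM, the fragments of a gene per kilobase of its transcripts and per unit of library size, which allows genes of different length to be compared. Differences are log2 fold changes from the deposited estimated counts, with edgeR's standard error. The libraries summed to 57406966 to 75065752 counts, and the counts are estimates in which a fragment is worth about 4. The myeloid label was checked on 12 markers, all of which reached a mean of 0.5 FPKM in THP-1 and 11 of which did in U-937, where MPO stayed at 0.06 to 0.17 FPKM. T cell markers summed to at most 0.90 FPKM, fibroblast and epithelial markers to at most 0.93 and B cell markers to at most 3.38 in any library. The DMSO libraries numbered 1 stood apart in both lines, with mitochondrial genes at 13.7% of all counts for THP-1 and 12.6% for U-937, where no other library exceeded 7.55% or fell under 5.61%.

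The mitotic genes were expressed at a high level in all 4 groups. The members together took 0.485% to 0.636% of a library's counts, and the median member stood at 18.4 FPKM in DMSO-treated THP-1 cells, 18.9 with honokiol, 22.4 in DMSO-treated U-937 cells and 22.2 with honokiol. At least 35 of the 42 had a mean of 10 FPKM or more in each group. CDC20, the activator of the anaphase-promoting complex, led in THP-1 (139.9 ± 10.5 FPKM with DMSO, SD, n = 3). TPX2, which activates Aurora A on the spindle, led in U-937 (202.8 ± 17.1 FPKM with DMSO). CDC25C, a phosphatase that activates CDK1, was the lowest member in all 4 groups, at 4.09 ± 0.10 FPKM in DMSO-treated THP-1 and 1.65 ± 0.51 in DMSO-treated U-937.

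**Figure D1:**
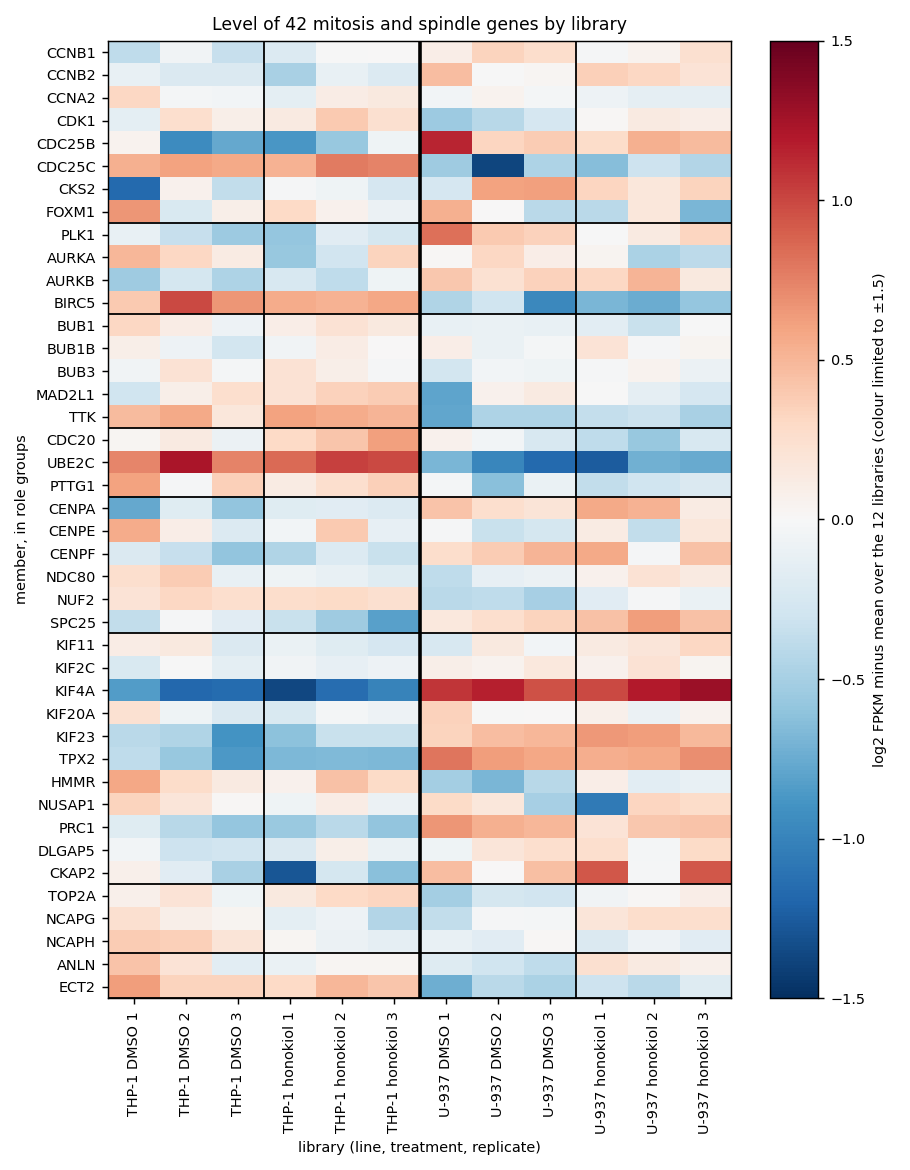
Each row is a member, ordered by role group, and each column a library. The colour is the log2 FPKM minus the member's mean over the 12 libraries, limited to ±1.5. The clearest blocks separate the lines, with KIF4A low in all 6 THP-1 libraries and high in all 6 U-937 libraries and UBE2C the other way round, while DMSO and honokiol columns of a line look alike for most rows.

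In THP-1 cells, honokiol left the mRNA of the 42 genes close to its level with DMSO. No member passed an adjusted p of 0.05 in edgeR's quasi-likelihood test, where 0.0411% of the 14600 genes tested did. DESeq2, which called 3.42% of all genes, also called 0 of the 42. Limma called 0 genes in all, so its count for the members was fixed. With so few genes called by edgeR and limma, a count of 0 does not set the members apart from other genes. The log2 fold changes ran from -0.56 for CKAP2 to 0.36 for CDC20. The median of the members was -0.08, that of all genes -0.00. The median absolute log2 fold change was 0.14 over the members and 0.23 over all genes. The 95% interval lay within a 2-fold change in either direction for 40 of the 42 members, the other two being AURKA and CKAP2. An unadjusted p under 0.05 was found for 4 members (9.52%), against 13.1% of all genes. CDC20 was higher, where 6.84% of all genes were, and NCAPG, NCAPH and SPC25 were lower, where 6.22% were. The 2 groups did not overlap in FPKM for 3 members (7.14%), against 20.6% of all genes. These were CDC20, higher, where 13.0% of all genes were, and NCAPG and NCAPH, lower, where 7.62% were.

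Of the 42, 13 had a fold change above 0 and 29 below it. With limma on the FPKM values 20 were above and 22 below, with a median of -0.01, where the median of all genes was 0.05. In the edgeR fit without DMSO replicate 1, the library rich in mitochondrial counts, 25 were above and 17 below and the median was 0.06. Without DMSO replicate 3 the median was -0.18. The side of 0 on which most members lay, and the size of the median, thus depended on single control libraries. No member was called without either library. With the 37 mitochondrial genes left out of the fit, 13 members were above 0 and 29 below, the median was -0.09 and no member was called. The cause of the difference between the control libraries was not tested.

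The condensin genes stood lowest beside their spread. NCAPH encodes a subunit of condensin I, the complex that compacts chromosomes for mitosis. Its FPKM was 19.34, 19.02 and 17.00 in the 3 DMSO libraries and 15.23, 14.00 and 13.52 with honokiol. All 3 treated libraries lay below all 3 controls, with a log2 fold change of -0.43 (SE 0.14) and an adjusted p of 0.284 by edgeR. NCAPG, another condensin I subunit, read 19.00, 17.09 and 16.61 with DMSO and 14.57, 15.29 and 11.89 with honokiol. The groups again did not overlap, with a log2 fold change of -0.40 (SE 0.16) and an adjusted p of 0.357. TOP2A, the topoisomerase that untangles sister DNA, gave 0.13 (SE 0.14).

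CDC20 was the member with the highest fold change. It read 140.11, 150.25 and 129.28 FPKM with DMSO and 168.35, 183.11 and 209.07 with honokiol, so that the lowest treated library exceeded the highest control. The log2 fold change was 0.36 (SE 0.14, 95% interval 0.04 to 0.68) with an adjusted p of 0.343. Its partners in ending mitosis gave lower values, -0.01 for UBE2C, the E2 enzyme of the same complex, and -0.15 for PTTG1, securin.

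At the kinetochore, 5 of 6 members had a fold change below 0. SPC25, a subunit of the NDC80 complex that grips spindle microtubules, read 13.45, 17.20 and 15.45 FPKM with DMSO and 13.85, 12.02 and 9.92 with honokiol. The highest treated library lay above the lowest control, and the log2 fold change was -0.42 (SE 0.17, adjusted p = 0.363 by edgeR). NDC80 itself gave -0.37 (SE 0.17), while NUF2, its direct partner in the complex, gave -0.05 (SE 0.12). CENPA, the histone that marks the centromere, gave 0.26 (SE 0.18). Its gene shares a strand with the overlapping SLC35F6, which is expressed at up to 13.6 FPKM, so reads could be split between them.

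Among kinases and spindle proteins the spread was wider. AURKA, the Aurora kinase of the spindle poles, read 48.93, 42.91 and 37.67 FPKM with DMSO and 23.23, 28.44 and 43.66 with honokiol. The third treated library stood with the controls, and the log2 fold change of -0.51 had an SE of 0.24 and an adjusted p of 0.413. It was -0.33 without honokiol replicate 1 and -0.79 without honokiol replicate 3. CKAP2, a spindle microtubule protein, read 24.01, 20.17 and 16.30 with DMSO and 9.33, 18.96 and 14.77 with honokiol. The first treated library was far below the rest, and the log2 fold change of -0.56 (SE 0.28) had an adjusted p of 0.426. It was -0.33 without honokiol replicate 1 and -0.36 without DMSO replicate 1. Of the 11 kinesins and spindle proteins 9 were below 0, with a median of -0.17. ANLN, the anillin of the cleavage furrow, read 27.01, 23.17 and 17.99 with DMSO and 18.79, 20.45 and 20.43 with honokiol. Its control libraries spanned the treated ones (log2 fold change -0.26, SE 0.19, adjusted p = 0.570 by edgeR), and the value was -0.06 without DMSO replicate 1 and -0.42 without DMSO replicate 3.

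The entry regulators and the checkpoint were the flattest groups in THP-1. CDK1, the kinase that drives cells into mitosis, read 20.48, 26.90 and 24.03 FPKM with DMSO and 24.83, 29.63 and 26.67 with honokiol. The groups overlapped, at a log2 fold change of 0.13 (SE 0.13, adjusted p = 0.682 by edgeR) that ran from 0.06 without honokiol replicate 2 to 0.21 without DMSO replicate 2 and was 0.08 without DMSO replicate 1. Its cyclin CCNB1 gave 0.13 and CCNA2, the cyclin of S and G2 phase, gave -0.11. MAD2L1, a checkpoint protein that holds CDC20 back, read 10.87, 14.24 and 15.95 with DMSO and 15.57, 16.94 and 17.45 with honokiol. It overlapped by a single control library, at 0.24 (SE 0.14, adjusted p = 0.494), a value of 0.13 without DMSO replicate 1. The other 4 checkpoint genes lay between -0.04 and 0.08.

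**Figure D2:**
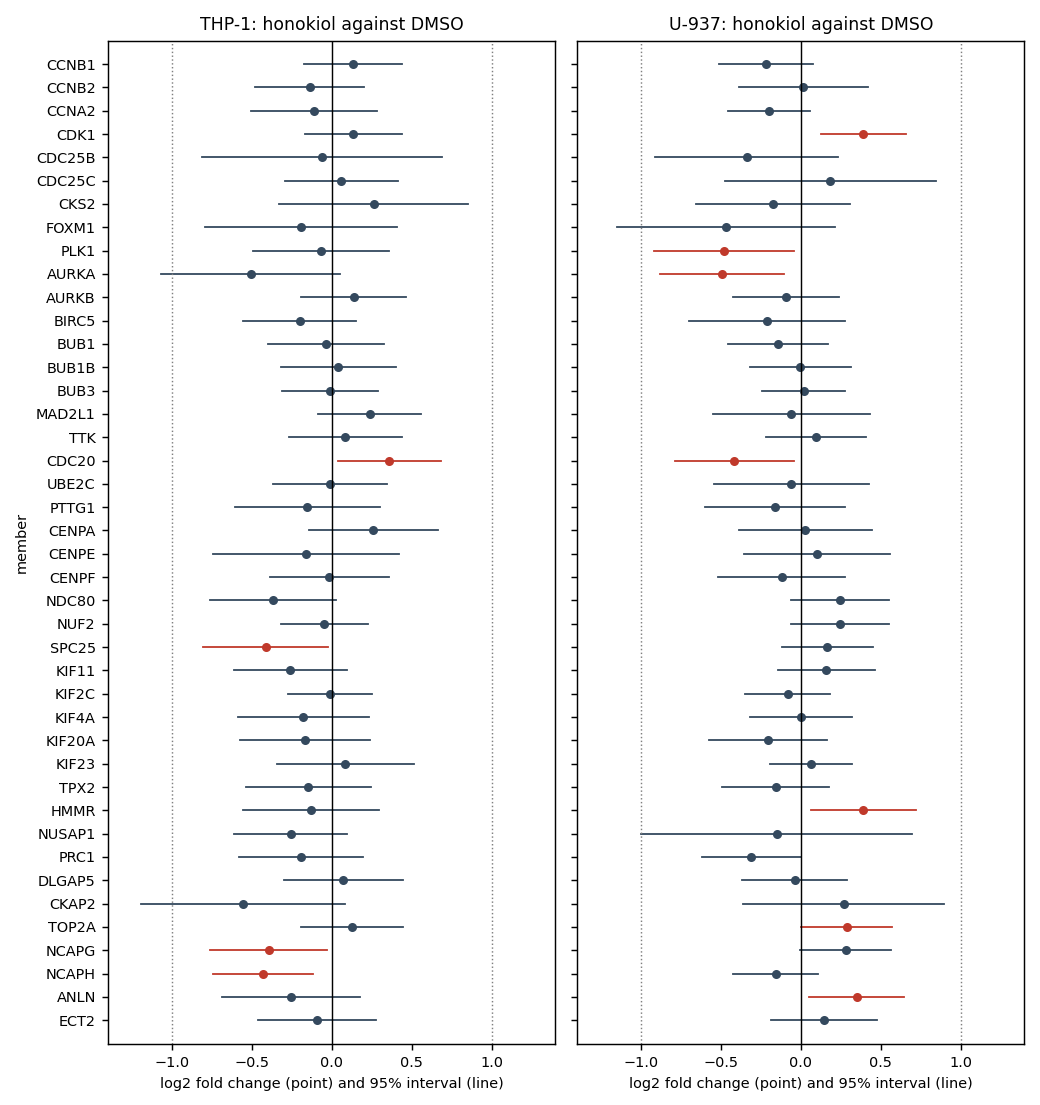
Points are log2 fold changes of honokiol against DMSO from the counts, with 95% intervals as lines, in THP-1 (left) and U-937 (right). Red marks an unadjusted p under 0.05, found for 4 members in THP-1 and 7 in U-937, and dotted lines mark a 2-fold change. The intervals of 40 of 42 members lie between the dotted lines in each line, and none of the adjusted p-values was under 0.05.

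In U-937 cells the picture was as flat in size and different in the genes at its edges. No member passed an adjusted p of 0.05, where 0.0947% of the 13726 genes tested did. DESeq2, which called 5.76% of all genes, and limma on log2(FPKM + 0.5), which called 0.131%, also called 0 of the 42. With so few genes called by edgeR and limma, a count of 0 does not set the members apart from other genes. The log2 fold changes ran from -0.49 for AURKA to 0.39 for CDK1. The median was -0.05 over the members and 0.02 over all genes, and the median absolute log2 fold change was 0.16 against 0.25. The 95% intervals of 40 members lay within a 2-fold change, the other two being FOXM1 and NUSAP1. An unadjusted p under 0.05 was found for 7 members (16.7%), against 16.7% of all genes, so the members' share equalled the background. ANLN, CDK1, HMMR and TOP2A were higher, against 8.25% of all genes, and AURKA, CDC20 and PLK1 were lower, against 8.44%. The groups did not overlap for 12 members (28.6%), against 24.2% of all genes, 8 of them higher, against 16.7%, and 4 lower, against 7.50%.

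Of the 42, 19 were above 0 and 23 below. Without DMSO replicate 1 of U-937, 22 were above and 20 below with a median of 0.02, and with limma on the FPKM values 24 were above and 18 below with a median of 0.05, where the median of all genes was 0.09.

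CDK1 had the smallest p among the members. It read 15.49, 16.90 and 19.03 FPKM with DMSO and 22.81, 24.71 and 24.16 with honokiol, all treated libraries above all controls. The log2 fold change was 0.39 (SE 0.12, 95% interval 0.12 to 0.66) with an adjusted p of 0.176 by edgeR. The other entry regulators did not follow it. CCNB1 gave -0.22 (SE 0.13) and CCNA2 gave -0.20 (SE 0.11). FOXM1, the transcription factor of the G2 and M genes, read 37.13, 25.79 and 19.42 with DMSO and 19.38, 28.83 and 16.03 with honokiol, an overlap with a log2 fold change of -0.47 and an SE of 0.30.

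The mitotic kinases lay on the other side. AURKA read 34.88, 42.82 and 36.94 FPKM with DMSO and 35.42, 24.78 and 26.34 with honokiol. The first treated library lay within the controls, and the log2 fold change was -0.49 (SE 0.17, adjusted p = 0.217 by edgeR). PLK1, the Polo-like kinase of mitotic entry and spindle assembly, read 60.76, 45.03 and 43.60 with DMSO and 34.01, 37.70 and 42.75 with honokiol. All treated libraries were below the controls, the nearest pair by less than 1 FPKM, at -0.48 (SE 0.19, adjusted p = 0.265). The highest PLK1 value was in DMSO replicate 1. AURKB and BIRC5 (survivin), of the passenger complex, gave -0.09 and -0.21, so that the 4 genes of the group were all below 0.

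CDC20 was lower in U-937, at 143.11, 132.79 and 115.93 FPKM with DMSO and 105.17, 92.05 and 115.73 with honokiol. The groups were separated by 115.93 against 115.73, with a log2 fold change of -0.42 (SE 0.16) and an adjusted p of 0.258. UBE2C gave -0.06 and PTTG1 gave -0.16. The checkpoint genes stayed between -0.14 and 0.09. BUB1, the kinase that recruits the checkpoint to kinetochores, had the smallest p of them, with 23.34, 23.60 and 23.38 FPKM with DMSO and 22.59, 19.97 and 25.18 with honokiol. Those groups overlapped (log2 fold change -0.14, SE 0.14, adjusted p = 0.639 by edgeR), with values of -0.05 without honokiol replicate 2 and -0.24 without honokiol replicate 3.

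The kinetochore, chromosome and furrow genes were mostly above 0. NDC80 read 7.06, 8.40 and 8.63 FPKM with DMSO and 9.63, 10.66 and 10.07 with honokiol, without overlap, at 0.25 (SE 0.13, adjusted p = 0.394 by edgeR). NUF2 gave 0.24 and SPC25 gave 0.17, also without overlap. TOP2A read 66.88, 79.11 and 78.06 with DMSO and 91.94, 96.24 and 101.77 with honokiol, a gap wider than the spread in either group. Its log2 fold change was 0.29 (SE 0.12) and its adjusted p 0.297. ANLN read 17.51, 16.39 and 15.37 with DMSO and 23.65, 22.09 and 21.22 with honokiol, also apart, at 0.35 (SE 0.13, adjusted p = 0.242).

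HMMR, a spindle protein that binds hyaluronan and microtubules, read 12.22, 10.86 and 13.12 FPKM with DMSO and 18.74, 15.58 and 16.18 with honokiol. The groups were apart, with a log2 fold change of 0.39 (SE 0.14, adjusted p = 0.235 by edgeR). PRC1, which bundles the central spindle, gave -0.31 (SE 0.13). NUSAP1, another spindle protein, had the widest spread: it read 33.93, 31.43 and 19.76 with DMSO and 13.40, 35.00 and 33.79 with honokiol, a coefficient of variation of 44.3% among the treated libraries. A neighbouring gene on the same strand reaches 9.53 FPKM and overlaps it.

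**Figure D3:**
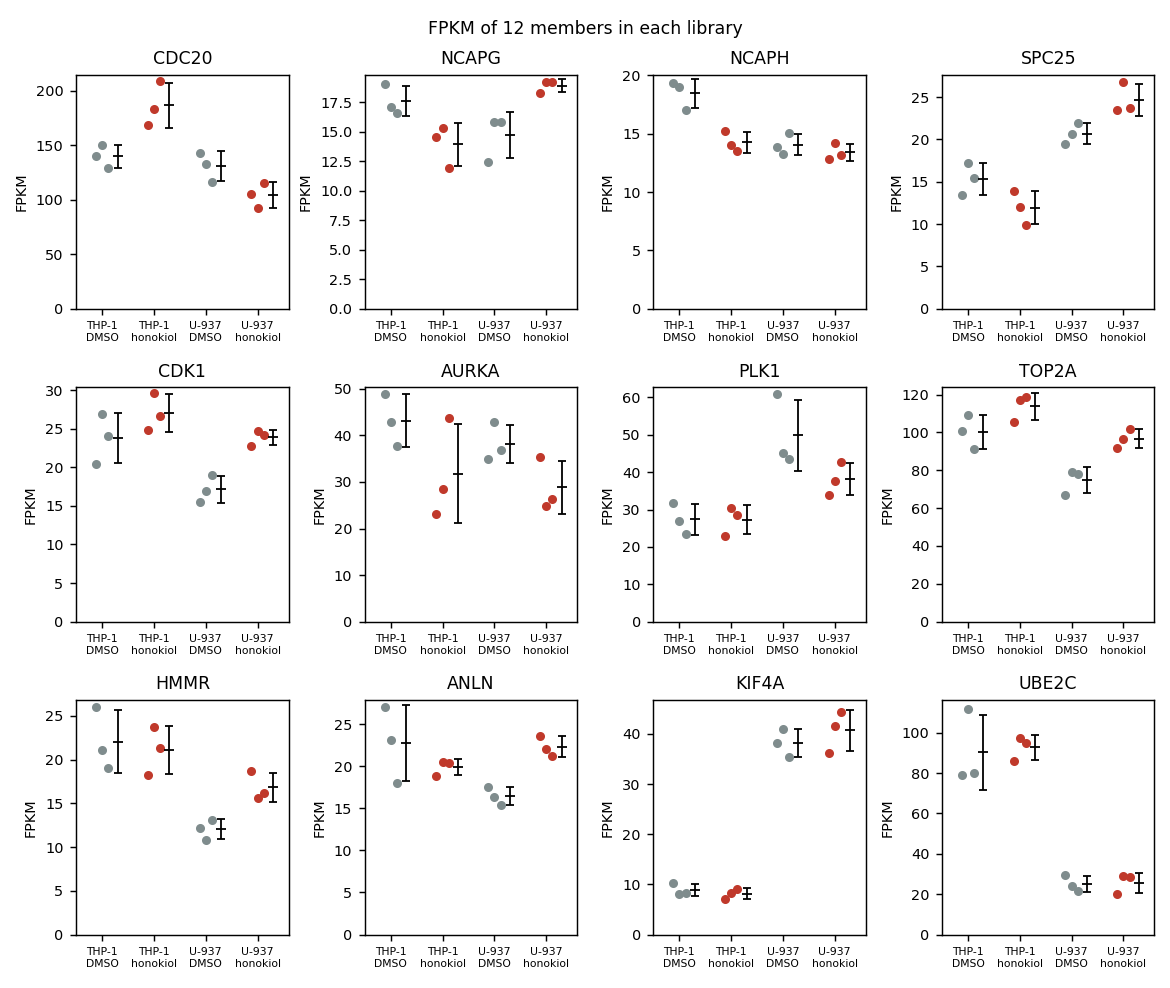
FPKM of 12 members in each library (points, grey for DMSO and red for honokiol) with the mean ± SD of the 3 libraries of a group. CDC20 and NCAPG separate by treatment in opposite directions in THP-1 and U-937, and KIF4A and UBE2C separate by line with little difference by treatment.

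The estimated responses of the lines were hardly correlated over the 42 genes. Pearson's r between their log2 fold changes was -0.09 and Spearman's rho -0.03 over the 42 members, and 22 had the same sign in both. The genes share libraries and are not independent, so these values are a description. The median absolute log2 fold change of the members, 0.14 in THP-1 and 0.16 in U-937, was about the size of their median SE, 0.16 and 0.14. The correlations therefore cannot show whether the responses of the lines differed. The difference of the honokiol effect, tested in a single fit of the 12 libraries, passed an adjusted p of 0.05 for no member, against 0.111% of 16283 genes. An unadjusted p under 0.05 was found for 5 members (11.9%), against 9.37% of all genes. CDC20 had the lower effect in U-937, where 4.54% of all genes did, and ANLN, NCAPG, NDC80 and SPC25 the higher, where 4.82% did. DESeq2 called 1 member, CDC20, and 1.5% of all genes.

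CDC20 gave the difference with the smallest p, a log2 effect 0.79 lower in U-937 than in THP-1 (-0.79, SE 0.21, 95% interval -1.25 to -0.33). Its adjusted p was 0.298 with edgeR and 0.0495 with DESeq2. The copy CDC20P1 reached 3.08 FPKM at most. NCAPG was the next, with a difference of 0.66 (SE 0.20, adjusted p = 0.329 by edgeR). It read 12.43, 15.83 and 15.80 FPKM in DMSO-treated U-937 and 18.27, 19.24 and 19.21 with honokiol, apart and upward, where the THP-1 libraries were apart and downward. NDC80 gave 0.60 (SE 0.21, adjusted p = 0.400). It read 10.95, 11.96 and 8.51 FPKM in DMSO-treated THP-1 and 8.81, 8.46 and 8.10 with honokiol, where a control lay among the treated libraries. SPC25 gave 0.57 and ANLN 0.60, both higher in U-937. For CKAP2 the estimate of 0.81 had a 95% interval of -0.12 to 1.75, and for 13 of the 42 members the interval reached past a 2-fold difference.

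More members differed between the lines than between the treatments. With DMSO, 25 of the 42 members (59.5%) differed between U-937 and THP-1 at an adjusted p under 0.05 in edgeR's quasi-likelihood test, against 52.9% of all 16283 genes. There were 12 higher in U-937, against 24.4% of all genes, and 13 lower, against 28.5%. With the criterion of an absolute log2 fold change over 1 added, 8 members (19.0%) passed, against 34.0% of all genes: BIRC5, CDC25B, CDC25C, ECT2, KIF4A, TPX2, TTK and UBE2C. Without DMSO replicate 1 of U-937, the library rich in mitochondrial counts, 5 members passed, and the share of all genes in that fit was not computed. The FPKM of the lines did not overlap for 27 members (64.3%), against 56.7% of all genes. The median absolute log2 difference was 0.46 over the members and 0.75 over all genes.

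KIF4A, a chromokinesin that works on condensed chromosomes and the central spindle, lies on chrX:70290104-70420886 in GRCh38, just downstream of the promoter shown above. It read 10.19, 8.06 and 8.21 FPKM in DMSO-treated THP-1 and 38.22, 40.98 and 35.32 in DMSO-treated U-937, more than 3 times the highest THP-1 value in every U-937 library. The log2 difference was 2.06 (SE 0.16, adjusted p = 1.13e-06 by edgeR), and the near copy KIF4B stayed at 0.39 FPKM or less. With honokiol KIF4A kept this gap, at 7.08, 8.27 and 9.12 in THP-1 and 36.21, 41.47 and 44.36 in U-937.

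TPX2 followed, with 97.85, 86.12 and 70.42 FPKM in THP-1 and 222.21, 196.03 and 190.09 in U-937. All U-937 libraries were above all THP-1 libraries, at a log2 difference of 1.21 (SE 0.16, adjusted p = 5.25e-05). KIF23, a kinesin of the midbody, read 7.26, 7.05 and 5.17 in THP-1 and 12.13, 13.27 and 13.66 in U-937. That is 0.95 on the log2 scale (SE 0.16, adjusted p = 0.000274). PRC1, which works with KIF4A and KIF23 at the central spindle, was higher by 0.90 (SE 0.15).

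UBE2C was the member most in excess in THP-1. Its gene lies on chr20:45812576-45816957. It read 79.18, 111.55 and 80.03 FPKM in DMSO-treated THP-1 and 29.59, 24.27 and 21.35 in DMSO-treated U-937, a log2 difference of -1.88 (SE 0.20, adjusted p = 8.42e-06 by edgeR). TTK, the kinase at the head of the spindle checkpoint, read 14.15, 15.06 and 11.39 in THP-1 and 5.93, 7.35 and 7.36 in U-937. The groups were apart, at -1.03 (SE 0.14, adjusted p = 6.14e-05). ECT2, the exchange factor that switches on RhoA at the furrow, read 11.72, 9.57 and 9.51 in THP-1 and 4.57, 5.71 and 5.46 in U-937. It too was apart, at -1.03 (SE 0.15, adjusted p = 0.000106).

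In the entry, kinase, kinetochore and spindle protein groups the called members went both ways between the lines. Of the 8 entry regulators CCNB1, CDC25B and CKS2 were higher in U-937 and CDC25C and CDK1 lower. Of the passenger complex AURKB was higher (0.70) and BIRC5 lower (-1.28). At the kinetochore CENPA, CENPF and SPC25 were higher and NDC80 and NUF2 lower, although SPC25, NDC80 and NUF2 are parts of the same complex. In the other groups all called members were lower in U-937. These were TOP2A and NCAPH of chromosome structure, both cytokinesis genes, UBE2C and PTTG1 of the anaphase group and TTK of the checkpoint. CCNA2, CDC20, KIF11, KIF20A, BUB1B and AURKA were among the 17 members with an adjusted p above 0.05, and their 95% intervals lay within a 2-fold difference.

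DMSO replicate 1 was the highest or the lowest of its group in both lines for several members. CKS2, a small subunit of the CDK1 complex, read 29.78, 69.74 and 51.47 FPKM in DMSO-treated THP-1 and 56.00, 101.13 and 101.91 in DMSO-treated U-937, lowest in replicate 1 of both. CDC25B, a phosphatase that starts CDK1 activation, read 14.84, 7.45 and 8.42 in THP-1 and 31.63, 17.90 and 18.67 in U-937, highest in replicate 1 of both. FOXM1 and PLK1 were also highest there in both lines, and MAD2L1 was lowest. Without both libraries 24 of the 42 members were called between the lines, 12 in each direction, against 50.7% of all genes in that fit.

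**Figure D4:**
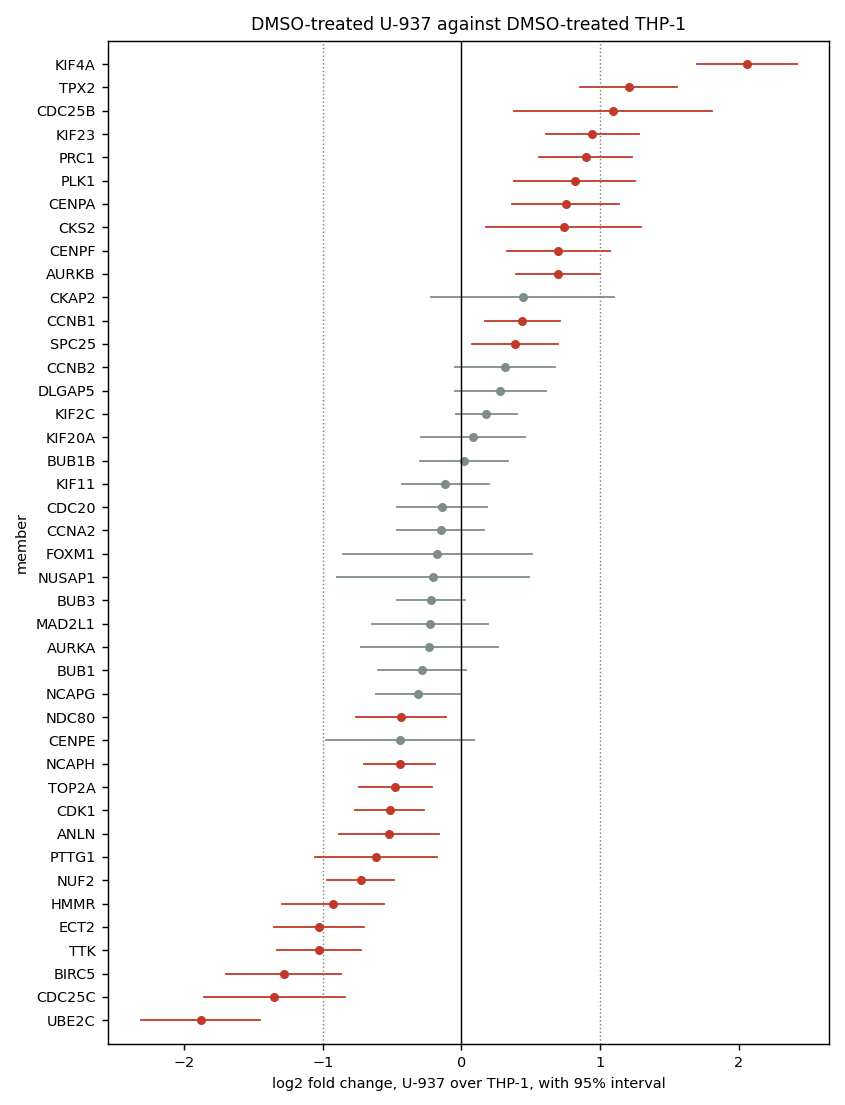
Log2 fold change of DMSO-treated U-937 over DMSO-treated THP-1 cells for each member, ordered by value, with 95% intervals. Red marks an adjusted p under 0.05 (25 members), grey the other 17, and dotted lines mark a 2-fold difference. KIF4A at 2.06 and UBE2C at -1.88 are the ends of the range.

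Genes of 7 other cell cycle lists were measured beside the members, and no gene of any list passed an adjusted p of 0.05 by edgeR for honokiol in either line or for the difference between lines. In THP-1 the DNA replication list had a lower median than the mitotic genes. Its 24 genes had a median log2 fold change of -0.36, 22 of them below 0, 10 lower at an unadjusted p under 0.05, against 6.22% of all genes. Its smallest p was that of GINS2, a subunit of the replicative helicase, at 10.0 ± 1.01 FPKM with DMSO and 6.60 ± 0.40 with honokiol (log2 fold change -0.66, SE 0.15, adjusted p = 0.172 by edgeR). Without DMSO replicate 1 the median was -0.26, with 23 of 24 below 0. In U-937 the same list had a median of -0.08, with 16 of 24 below 0. Without DMSO replicate 1 of U-937 the median was -0.17, with 20 of 24 below 0. With limma on the FPKM values it was 0.01, where the median of all genes was 0.09. MCM7, another helicase subunit, had the smallest p of the list in U-937 by edgeR, at 156.7 ± 18.9 FPKM with DMSO and 126.7 ± 11.8 with honokiol (-0.39, SE 0.13, adjusted p = 0.216).

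The list of G1 cyclins, CDKs and CDK inhibitors had 18 tested genes in THP-1. Their median was -0.31, with 12 below 0 and 6 lower at an unadjusted p under 0.05, against 6.22% of all genes. CCNE2, a cyclin of the G1 to S transition, read 4.83 ± 1.71 FPKM with DMSO and 2.16 ± 0.27 with honokiol (-1.23, SE 0.30, adjusted p = 0.185 by edgeR). Without DMSO replicate 1 the share of all genes was not computed. In that fit the median of the list was -0.17 and 3 genes were lower at an unadjusted p under 0.05. In U-937 its 20 genes had a median of 0.04, which became -0.05 without DMSO replicate 1, and the smallest p was that of E2F2, an activator of S phase genes, at 10.9 ± 1.37 and 17.0 ± 2.68 FPKM (0.54, SE 0.17, adjusted p = 0.200).

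The other kinetochore and checkpoint genes, 31 in number, had medians on opposite sides of 0 in the lines, as the kinetochore members did. Their median was -0.17 in THP-1, with 26 below 0, and 0.17 in U-937, with 22 above 0. The difference between the lines was above 0 for 26 of 31, with a median of 0.37 against 0.01 over all genes, and 8 were higher at an unadjusted p under 0.05, against 4.82% of all genes. Without DMSO replicate 1 of both lines the median difference was 0.19, 21 of 31 were above 0 and 5 had an unadjusted p under 0.05. The share of all genes in that fit was not computed. ZWINT, a kinetochore scaffold, had the smallest p in THP-1, at 40.3 ± 1.19 FPKM with DMSO and 28.3 ± 4.08 with honokiol (-0.56, SE 0.14, adjusted p = 0.215 by edgeR). CENPQ, of the inner kinetochore, had it in U-937, at 8.65 ± 1.19 and 13.2 ± 1.73 FPKM (0.52, SE 0.17, adjusted p = 0.198).

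Condensin and cohesin genes had a median of -0.17 in THP-1, with 13 of 16 below 0, and -0.01 in U-937, with STAG1 (-0.44, adjusted p = 0.325 by edgeR) and SMC4 (-0.49, adjusted p = 0.154) as the genes of smallest p. The other spindle and cytokinesis genes had medians of -0.08 and 0.02, with MKI67 (-0.51, adjusted p = 0.362) and KIF22 (-0.29, adjusted p = 0.262). MKI67, the gene of the proliferation marker Ki-67, read 61.58, 41.52 and 48.67 FPKM with DMSO in THP-1 and 31.92, 42.30 and 37.70 with honokiol, an overlap of a single pair of libraries. The anaphase-promoting complex had medians of -0.05 and -0.01, with ANAPC15 (-0.45, adjusted p = 0.398) and ANAPC16 (0.44, adjusted p = 0.250). The other G2 and M regulators had -0.10 and 0.04, with CDC25A (-0.40, adjusted p = 0.335), which is also in the G1 list, and PKMYT1 (-0.49, adjusted p = 0.221).

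**Figure D5:**
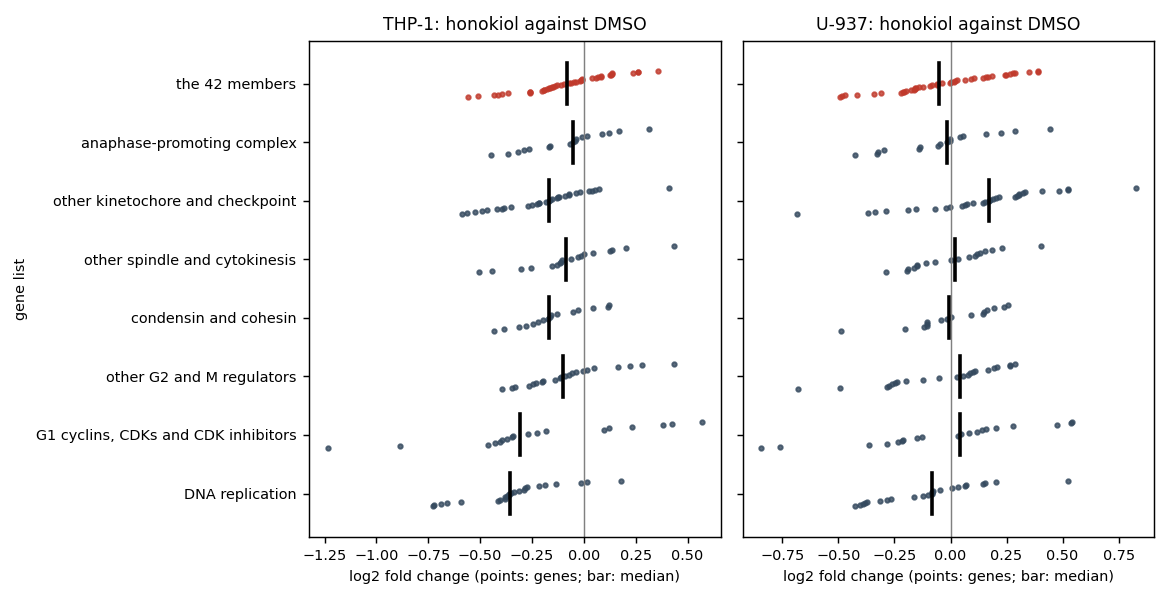
Log2 fold change of honokiol against DMSO for each gene (points) of the 42 members (red) and of 7 other cell cycle lists, in THP-1 (left) and U-937 (right), with the median of each list as a bar. The members lie around 0 in both lines, with medians of -0.08 and -0.05 that become 0.06 and 0.02 without DMSO replicate 1 of the line, and the DNA replication list has the lowest median in THP-1, at -0.36.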

How the data were processed

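Poly(A) mRNA was sequenced as paired-end libraries from 12 samples, grouped by the cell line and treatment in the labels. The authors' table lists FPKM and counts per gene and library. The deposited FPKM values carry the authors' scaling to length and depth. The deposited estimated counts are whole numbers in which a fragment is worth several counts, so their totals are not numbers of fragments. The submitters' processing notes name Bowtie 0.12.2, HISAT2 2.0, StringTie 1.3.0 and the mouse build mm8. The coordinates match human GRCh38, since 41 members had a start within 10 kb of that in GENCODE 29. All 42 had the same chromosome and strand there. The strand setting of the counting is not given in the sources used here. Labels and methods disagree on the sequencer and the RNA amount.

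Genes with at least 0.5 FPKM in at least 3 libraries of the fit were tested on the counts, normalized by TMM, with edgeR's quasi-likelihood test (edgeR 4.0.16 in R 4.3.3) and Benjamini-Hochberg adjustment over all genes tested, without a replicate term. The honokiol effect was tested line by line. The difference between lines and the DMSO comparison came from a fit of all 12 libraries. SE is the absolute log2 fold change over the root of F. Overlap of groups was judged on FPKM. The fits were tested on simulated data. DESeq2 1.42.0 and limma 3.58.1 (log2(FPKM + 0.5), and + 0.1) served as alternatives, besides RLE factors, other filters, counts divided by 4, a replicate block and each library left out. Fits without the 37 mitochondrial genes or without both DMSO libraries numbered 1, and the list medians under other settings, were added after seeing the data.

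Values in every library are given for the member of smallest p in each role group and line, the 3 of smallest p for the difference between lines and the 3 of smallest p higher in each line, and each other list gives its gene of smallest p in each line. PLK1, FOXM1, NUSAP1, CKS2, CDC25B and MKI67 were added after their values were seen. The members, lists and tests were chosen with earlier results of these data known. Promoter windows come from RefSeq.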

Additional observations from a re-analysis of the deposited data

Results flagged for a closer look

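For 2 members the honokiol and DMSO libraries were apart in both lines and in opposite directions. Taken line by line, 20.6% of all genes were apart for THP-1 and 24.2% for U-937. The share of all genes apart in both lines with opposite directions was not computed, so these 2 members have no background to be compared with. CDC20 was higher with honokiol in all 3 THP-1 libraries and lower in all 3 U-937 libraries than in every control of the line. The nearest U-937 pair was 115.93 FPKM with DMSO and 115.73 with honokiol. The difference of the honokiol effect between the lines was -0.79 (log2, SE 0.21). It was tested, with an adjusted p of 0.298 by edgeR's quasi-likelihood test, and over 22 alternatives the difference ran from -0.90 to -0.68 and the adjusted p from 0.0495 (DESeq2) to 0.602. NCAPG was lower in THP-1 and higher in U-937, a difference of 0.66 (SE 0.20) with an adjusted p of 0.329 by edgeR, which ran from 0.122 to 0.647 over the alternatives with the difference between 0.47 and 0.74. Neither passed the correction in edgeR.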

How the results depend on the processing

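No member was called for honokiol in THP-1 (0) or U-937 (0) under any alternative run. These included each library left out (0 to 0), no filter, DESeq2, limma and the fit of 12 libraries. Several of these fits called 0 genes in all, where a count of 0 members was fixed. The smallest adjusted p-values were 0.134 (NCAPH) and 0.0962 (CDK1), both from DESeq2, which called 500 and 790 genes in all. For the difference between the lines the count was 0 with each library left out and 1 with DESeq2 (CDC20). Between the lines with DMSO, 25 members were called, where 52.9% of all genes were. With a library left out 21 to 25 were called (48.4% to 52.5% of all genes). There were 20 with the DMSO libraries alone (47.3%) and 23 with no filter (26.2%). With the fold criterion added 8 passed (34.0%), which fell to 5 without DMSO replicate 1 of U-937, where the share of all genes was not computed. Whether libraries of the same number shared a batch cannot be decided with 3 libraries a group. The correlation of deviations by number ran from -0.21 to 0.12 within lines. Between the lines it ran from 0.05 to 0.21 for the DMSO libraries, where 1 of the 3 was under 0.1. For the honokiol libraries it ran from -0.05 to 0.02. Both DMSO libraries numbered 1 were rich in mitochondrial counts (13.7% for THP-1, 12.6% for U-937). A fit with the number as a block called 0, 0, 0 and 25 members in the same order, and 0%, 0%, 0% and 51.3% of all genes. It lowered the members with an unadjusted p under 0.05 (4 to 2 for THP-1, 7 to 2 for U-937), and these fell to 1 without honokiol replicate 3 of THP-1, to 2 without DMSO replicate 2 or honokiol replicate 1 of U-937 and to 3 without its honokiol replicate 2. None of the 25 single-gene values followed through all alternatives changed sign, but other members did, as the THP-1 counts above and below 0 show. The unadjusted count of THP-1 was 6 without its DMSO replicate 3 and in the fit of 12 libraries, and that of the difference was 8 against 5 with limma. Members called higher in U-937 with DMSO were 8 against 12 without DMSO replicate 3 of THP-1. For the unadjusted counts and the counts by direction, the share of all genes in these alternative fits was not computed. They cannot show whether the members moved more than other genes. The cause of these changes was not tested. The lowest group mean of a member was 1.65 FPKM, that of CDC25C in DMSO-treated U-937, and an effect of depth was not tested. With 3 libraries a group the members had a median SE of 0.16 (THP-1) and 0.14 (U-937).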
